A study of Danio rerio with 6 samples.

Results

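The genes described here are 10 zebrafish genes of the Nrf2 oxidative stress pathway: hmox1a, nqo1, gclc, gclm, gstp1, prdx1, sqstm1, txn, keap1a and nfe2l2a. They were chosen by symbol, and each of the 10 symbols was found once among the 31624 genes of the deposited table. All 10 had enough reads to be tested, with 219 to 8364 reads per gene and library. They were measured by RNA sequencing of whole zebrafish (Danio rerio) embryos, in 3 libraries labelled as Trdmt1 knockout and 3 wildtype control libraries. Trdmt1, or Dnmt2, is a methyltransferase that acts on transfer RNAs, and the study set out to learn what it does in this fish. Embryo age, strain, the kind of knockout allele and the number of embryos or clutches per library are not stated in the labels, and p-values measure the spread between these 6 libraries, which may be technical.

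Nrf2, encoded by nfe2l2a in zebrafish, is a transcription factor that switches on genes for glutathione synthesis, conjugation of toxic compounds and repair of oxidised proteins. In unstressed cells the sensor protein Keap1 binds Nrf2 and hands it to a ubiquitin ligase for destruction. Oxidants and electrophiles modify Keap1, Nrf2 then accumulates without a need for more nfe2l2a transcript, and it binds antioxidant response elements together with small Maf proteins. In zebrafish embryos, gstp1 is a widely used reporter of this response.

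The targeted gene trdmt1 stood at 3.10, 2.60 and 1.08 RPKM (reads scaled by exonic length and library total) in controls 1, 2 and 3. It stood at 1.59, 1.40 and 1.07 RPKM in knockouts 1, 2 and 3, so the groups overlapped at control 3 and the transcript does not check the labels. Reads in genes totalled 12877132 to 18721589 per library. Knockouts 1 and 2 were nearly alike, with a median absolute difference of 0.10 in log2 CPM (reads scaled by library size) across genes, against 0.22 to 0.45 in the other 14 library pairs. The 5 pairs with knockout 3 were the widest, at 0.39 to 0.45. For members in which knockout 3 was the highest or lowest library, and for each gene list, values without it are therefore also given. Their knockout side is the nearly alike knockouts 1 and 2 alone, so p-values without knockout 3 may be too small. The summed level of photoreceptor markers was 165, 139 and 89.4 RPKM in controls 1 to 3. It was 41.3 and 46.1 RPKM in knockouts 1 and 2, and 1202 RPKM in knockout 3. That of hatching gland markers was 52.1 RPKM in knockout 3 and 168 to 302 RPKM elsewhere.

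The members' annotation overlapped only in part, and no term covered more than 5 of the 10. In the terms attached to the deposited table, hmox1a, nqo1, gstp1, keap1a and nfe2l2a carried the term for cellular response to xenobiotic stimulus, which 30 genes of the table hold. The general term for response to oxidative stress was attached to gclc, hmox1a and nfe2l2a. Of the 5 genes annotated to glutathione biosynthesis, 2 were members, gclc and gclm. The only term that sqstm1 shared with another member, hmox1a, was metal ion binding, which 2226 genes hold. The gene listed as gstp1 (ENSDARG00000104068) carries the name gstp1.2, and the gene listed as txn (ENSDARG00000044125) the name txnb, in the current name table.

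In the comparison of knockout with control embryos, sqstm1 had the largest difference among the 10 members and was higher in all 3 knockout libraries, at 1.72-fold. The quinone reductase gene nqo1 was lower in all 3, at 0.758 times the control level. For the other 8 members the knockout and control ranges overlapped. The classical Nrf2 targets gclc, gclm, gstp1, prdx1, txn and hmox1a did not stand together on either side of the controls.

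None of the 10 members passed edgeR's quasi-likelihood test at a Benjamini-Hochberg adjusted p under 0.05 over all genes tested. At an unadjusted p under 0.05 there were 2, sqstm1 higher and nqo1 lower, and nqo1 kept such a p in 3 of 13 alternative fits. Over all 20555 genes tested, 0.117% were called, 4.06% were higher and 3.41% lower at that unadjusted threshold. DESeq2 called 1 member higher, sqstm1, where it called 0.916% of all genes higher. In 5 of the 10 members the log2 fold change was above 0, as in 49.5% of all genes, and the members' median was 0.05 against a median of -0.0038 over all genes. Without knockout 3 it was above 0 in 7 of the 10, as in 47.3% of all genes, and the members' median was 0.12. All 3 knockout RPKM values lay above all controls in 1 member and below them in 1, against 6.3% and 9% of all genes.

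**Figure D1:**
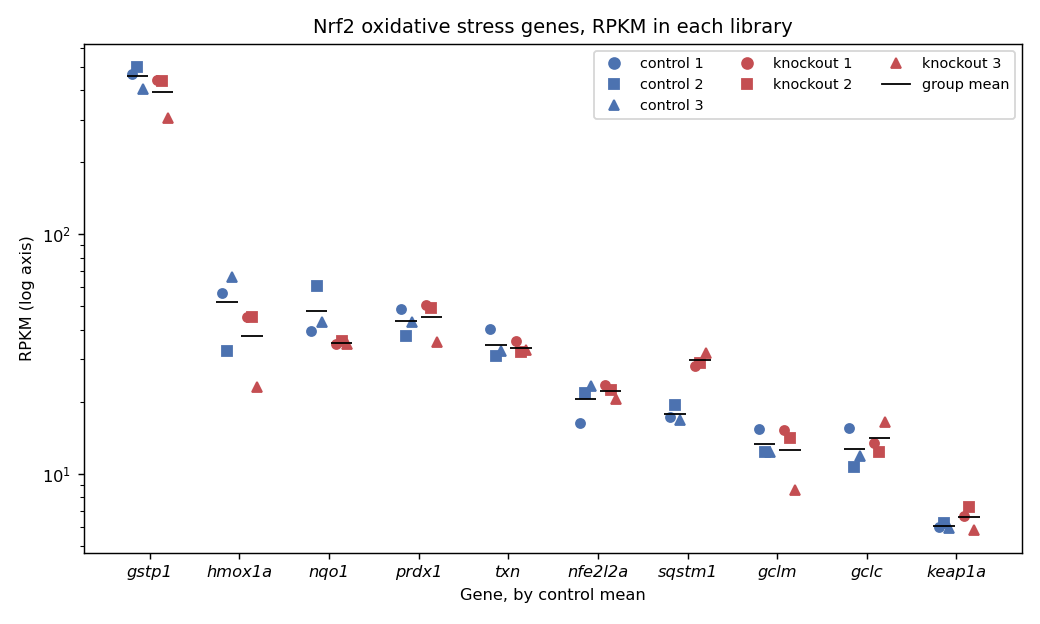
RPKM (vertical log axis) of the 10 members in each control (blue) and knockout (red) library, with group means as black bars. The sqstm1 knockout values, 28.1 to 32.1 RPKM, lie above its controls, and for most members the colours interleave.

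The levels of the members differed widely, and their order is per length since RPKM divides by exonic length. In controls gstp1 was by far the highest, at 459 ± 47.6 RPKM (SD, n = 3), and made up 61.4% to 68.3% of the members' summed RPKM. It was followed by hmox1a, nqo1, prdx1 and txn, at means of 51.9, 47.8, 43.3 and 34.5 RPKM, and the ranges of neighbours in this run overlapped. Next came nfe2l2a and sqstm1, at 20.4 and 17.8 RPKM with overlapping ranges, and then gclm and gclc, at 13.3 and 12.7 RPKM, also overlapping. The sensor gene keap1a was lowest, at 6.04 ± 0.159 RPKM (SD, n = 3). In knockouts sqstm1 stood above nfe2l2a with ranges that did not overlap, at 29.7 ± 2.09 and 22.1 ± 1.51 RPKM (SD, n = 3 each).

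The regulators nfe2l2a and keap1a differed little between the groups. The transcription factor gene nfe2l2a (ENSDARG00000042824) stood at 16.2, 21.8 and 23.2 RPKM in controls 1 to 3, against 23.4, 22.4 and 20.5 RPKM in knockouts 1 to 3. Control 1 was the lowest and knockout 1 just the highest, and the groups overlapped. The fold change was 1.11, with a 95% interval from 0.849 to 1.46 (edgeR adjusted p = 0.863). The sensor gene keap1a (ENSDARG00000016132) stood at 5.96, 6.22 and 5.93 RPKM in control libraries, against 6.63, 7.22 and 5.83 RPKM in knockout libraries. Knockouts 1 and 2 were above the controls and knockout 3 below them. Its fold change was 1.12, with a 95% interval from 0.869 to 1.43 (edgeR adjusted p = 0.845), and without knockout 3 its log2 fold change went from 0.16 to 0.24. The RPKM ratio of nfe2l2a to keap1a was 3.38 ± 0.603 in controls and 3.38 ± 0.242 in knockouts (SD, n = 3 each; two-sided exact permutation p = 0.8 on log2 ratios). This ratio leaves out the other Keap1 gene, keap1b, which stood higher than keap1a.

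Both copies of these regulators are present in zebrafish, and the second copies are named here for that reason. The gene keap1b, the other Keap1, was at 13.8 ± 0.823 RPKM in control libraries, against 13.0 ± 0.260 RPKM in knockout libraries (SD, n = 3 each). The second Nrf2 gene, nfe2l2b, was lower and more scattered, at 1.87, 2.14 and 4.42 RPKM in control libraries, against 4.60, 4.58 and 2.15 RPKM in knockout libraries. Knockouts 1 and 2 sat beside control 3, and knockout 3 beside controls 1 and 2.

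Glutamate-cysteine ligase makes the first and rate-limiting step of glutathione synthesis, with gclc as its catalytic and gclm as its modifier subunit. The catalytic subunit gene gclc (ENSDARG00000013095) stood at 15.5, 10.7 and 11.8 RPKM in controls 1 to 3, against 13.4, 12.4 and 16.4 RPKM in knockouts 1 to 3. The groups overlapped, with knockout 3 highest. For gclc the fold change was 1.14, with a 95% interval from 0.849 to 1.53 (edgeR adjusted p = 0.844), and without knockout 3 its log2 fold change went from 0.19 to 0.065. The modifier subunit gene gclm (ENSDARG00000018953) stood at 15.4, 12.3 and 12.4 RPKM in control libraries, against 15.2, 14.1 and 8.52 RPKM in knockout libraries. Here knockout 3 was the lowest of the 6 libraries. The fold change of gclm was 0.970, with a 95% interval from 0.679 to 1.39 (edgeR adjusted p = 0.981), and without knockout 3 the log2 fold change turned from -0.04 to 0.17.

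The subunits thus parted in knockout 3, a pattern picked out after the values were seen. The RPKM ratio of gclc to gclm was 1.01, 0.870 and 0.956 in the controls and 0.885 and 0.880 in knockouts 1 and 2, and it was 1.92 in knockout 3. Between the groups the ratio did not differ beyond the spread (two-sided exact permutation p = 0.8 on log2 ratios, where 0.1 is the smallest the 20 assignments allow).

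Conjugation and quinone reduction are served by gstp1 and nqo1. The glutathione S-transferase gene gstp1 stood at 469, 500.3 and 407 RPKM in controls 1 to 3, against 442, 438 and 305 RPKM in knockouts 1 to 3. Knockouts 1 and 2 fell within the control range and knockout 3 was the lowest library. The fold change was 0.887, with a 95% interval from 0.669 to 1.18 (edgeR adjusted p = 0.851), and without knockout 3 the log2 fold change went from -0.17 to -0.016. Its neighbouring copy gstp2 was far lower, at 1.51 to 6.55 RPKM in control libraries, against 2.99 to 10.9 RPKM in knockout libraries, and reads can be split between such related copies.

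The gene nqo1 (ENSDARG00000010250) encodes NAD(P)H quinone dehydrogenase, which reduces quinones without forming radicals. It stood at 39.5, 60.9 and 43.1 RPKM in controls 1 to 3, against 34.8, 35.8 and 35.0 RPKM in knockouts 1 to 3. The knockouts were close together and all below the controls, with the lowest control 1.103 times the highest knockout. The log2 fold change was -0.40 ± 0.17 (SE; edgeR p = 0.0469, adjusted p = 0.660), and the two-sided exact permutation p was 0.1, the smallest possible. Control 2 was the high value, and without it the log2 fold change was -0.20 (edgeR adjusted p = 0.976). In 10 of the 13 alternative fits, among them DESeq2, the replicate block and the fit without control 2, nqo1 was no longer under the unadjusted threshold.

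Peroxide and protein thiol reduction rest on peroxiredoxins and thioredoxin. The peroxiredoxin gene prdx1 (ENSDARG00000058734) stood at 48.9, 37.7 and 43.2 RPKM in controls 1 to 3, against 50.6, 49.3 and 35.5 RPKM in knockouts 1 to 3. Knockouts 1 and 2 were above every control and knockout 3 below every control. Its fold change was 1.07, with a 95% interval from 0.804 to 1.43 (edgeR adjusted p = 0.924), and without knockout 3 its log2 fold change went from 0.10 to 0.25. The thioredoxin gene txn stood at 40.1, 31.0 and 32.4 RPKM in control libraries, against 35.7, 32.3 and 32.8 RPKM in knockout libraries, entirely within the control range. For txn the fold change was 1.00 (0.9996), with a 95% interval from 0.787 to 1.27 (edgeR adjusted p = 0.999).

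Heme oxygenase 1, encoded by hmox1a (ENSDARG00000027529), breaks heme down to biliverdin, iron and carbon monoxide and is among the most inducible stress enzymes. It stood at 56.8, 32.4 and 66.6 RPKM in controls 1 to 3, against 44.9, 45.1 and 23.1 RPKM in knockouts 1 to 3. The controls alone spanned 2.05-fold, knockouts 1 and 2 lay within them, and knockout 3 was the lowest library. The log2 fold change was -0.43 ± 0.33 (SE; edgeR adjusted p = 0.803), the widest error among the members, and it was -0.17 without knockout 3. In whole embryos a smaller share of hmox1a-expressing cells and less transcript per cell cannot be told apart, here or for any other member. Summed markers of macrophages and neutrophils, a known site of heme oxygenase expression, were 161 to 190 RPKM in control libraries, against 215, 211 and 122 RPKM in knockouts 1 to 3. All 18 of these markers were detected, and 12 of the 18 had a higher mean in the knockouts. All knockouts lay above all controls in 6 of the 18 and below in 2, against 6.3% and 9% of all genes. Of the 18, edgeR called 1, against 0.117% of all genes. Their part in the hmox1a values was not tested. The 12 erythroid markers summed to 4952 to 5717 RPKM in control libraries, against 6409, 6263 and 3722 RPKM in knockouts 1, 2 and 3. This sum was lowest in knockout 3, as were hmox1a and the macrophage and neutrophil sum. In knockouts 1 and 2 both sums lay above all controls, while hmox1a lay within the control range. Only 4 of the 12 erythroid markers had a higher mean in the knockouts, so the erythroid sum does not stand for most of these markers. Their part in the hmox1a values was not tested either.

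**Figure D2:**
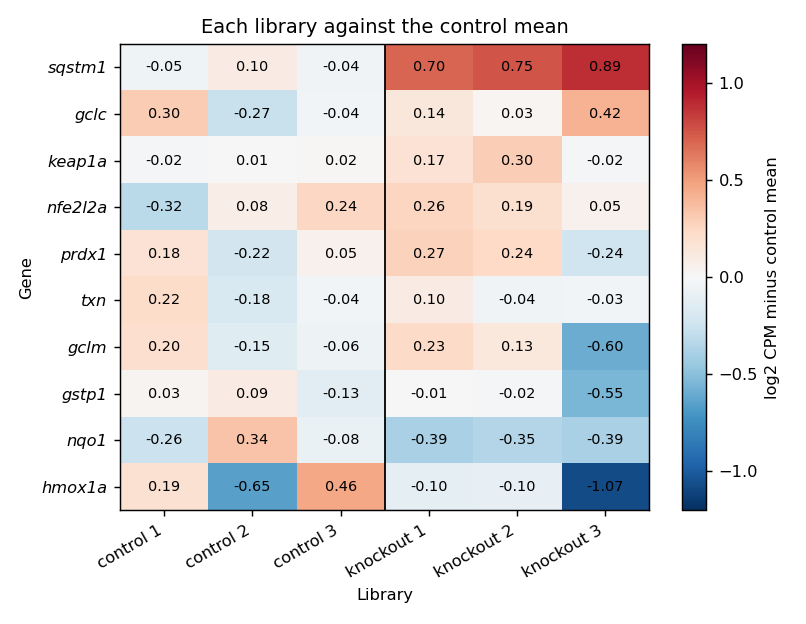
Control-centred log2 CPM (colour and printed value) of each member (rows) in each library (columns). The sqstm1 row is high in all 3 knockouts, at 0.70, 0.75 and 0.89, and hmox1a, gclm and gstp1 are low in knockout 3, at -1.07, -0.60 and -0.55.

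Across the members, knockout 3 was the lowest of the 6 libraries in 5 genes (hmox1a, gclm, gstp1, prdx1 and keap1a) and the highest in 2 (gclc and sqstm1). Over all genes tested it was lowest in 33% and highest in 28.6%. Knockouts 1 and 2 without knockout 3 lay above all controls in 3 members (keap1a, prdx1 and sqstm1) and below them in 1 (nqo1), against 13.6% and 19% of all genes.

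The gene sqstm1 (ENSDARG00000075014) encodes p62, an autophagy receptor that carries ubiquitinated cargo to autophagosomes, is a target of Nrf2 in mammals, and can itself bind Keap1 and so free Nrf2. It stood at 17.2, 19.4 and 16.7 RPKM in controls 1 to 3, against 28.1, 29.0 and 32.1 RPKM in knockouts 1 to 3. The lowest knockout was 1.44 times the highest control, and knockout 3, which went its own way in other members, was the highest library here. The mean went from 17.8 ± 1.46 to 29.7 ± 2.09 RPKM (SD, n = 3 each), with 458 to 1038 reads per library behind the values.

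The edgeR log2 fold change of sqstm1 was 0.78 ± 0.14 (SE), with a 95% interval from 1.39- to 2.13-fold. Its edgeR p was 0.000284, rank 62 among the 20555 genes, and its adjusted p of 0.0929 missed the threshold. The two-sided exact permutation test gave p = 0.1, the smallest the design allows, which any gene without overlap gets. DESeq2 gave the same gene an adjusted p of 0.000511, with a log2 fold change of 0.79 ± 0.17 (SE). Without knockout 3, edgeR gave a log2 fold change of 0.73 and an adjusted p of 0.0230, with 0.789% of all genes then called higher. The knockout side of that fit was the nearly alike knockouts 1 and 2 alone, so its p may be too small. The log2 fold change lay between 0.73 and 0.84 in 13 alternative fits, and the adjusted p between 0.000511 and 0.438. With knockouts 1 and 2 summed to 1 sample the adjusted p was 0.291.

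**Figure D3:**
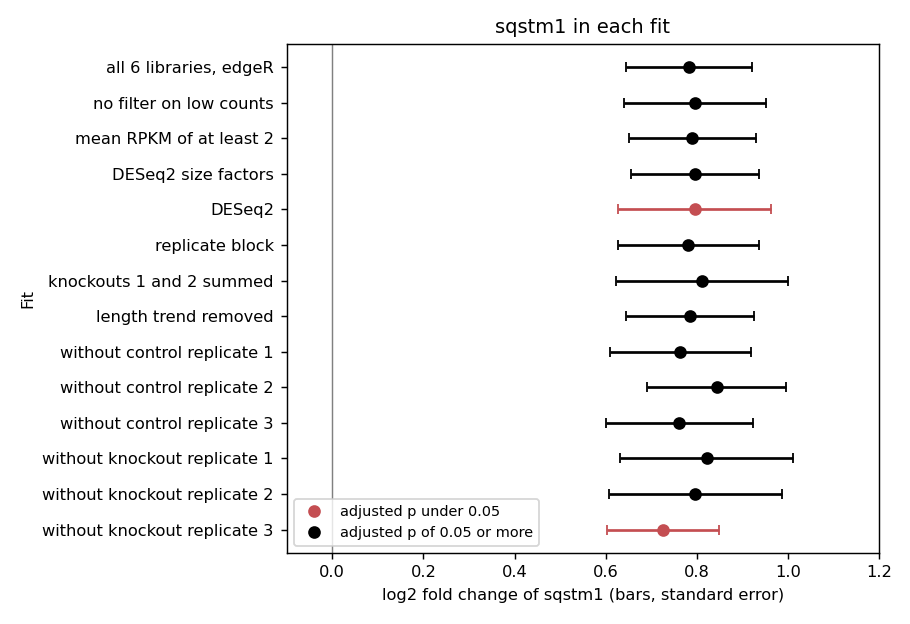
The log2 fold change of sqstm1 (horizontal, bars are standard errors) in each fit, red where the adjusted p was under 0.05. The estimates stay between 0.73 and 0.84, and 2 fits pass the threshold, DESeq2 and edgeR without knockout 3. The latter fit has only the nearly alike knockouts 1 and 2 on the knockout side.

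In the RefSeq gene table of a later assembly sqstm1 overlaps the gene mrnip, and with no strand setting given, reads of overlapping genes cannot be told apart. Reads assigned to mrnip were few, 3 to 18 per library, at 0.0800 to 0.510 RPKM in control libraries, against 0.210 to 0.490 RPKM in knockout libraries. The members prdx1 and nfe2l2a also overlapped a neighbour there, fzr1b and hnrnpa3. The former stood at 8.42 to 11.9 RPKM in control libraries, against 9.07 to 13.7 RPKM in knockout libraries. The latter stood at 2.44 to 3.55 RPKM and 3.53 to 4.36 RPKM.

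Genes with the pattern most like that of sqstm1 over the 6 libraries were plk2a, arrdc3a and csrnp1a. Likeness was the mean absolute difference in control-centred log2 CPM, among 9417 non-member genes with a mean of at least 5 RPKM and a proper name. It was 0.065, 0.066 and 0.074, against a median of 0.47 over those genes. The polo-like kinase gene plk2a stood at 6.44, 6.99 and 6.92 RPKM in control libraries, against 10.7, 10.8 and 11.4 RPKM in knockout libraries. The arrestin-domain gene arrdc3a stood at 18.0, 22.9 and 21.2 RPKM in control libraries, against 31.4, 32.8 and 37.5 RPKM in knockout libraries. Neither passed over all genes (edgeR adjusted p = 0.160 and 0.161), nor did csrnp1a (edgeR adjusted p = 0.116). Nearest to hmox1a, the member with the next largest difference, were iqcb1, slc29a2 and atic, at 0.13, 0.15 and 0.16 against a median of 0.45. Among them, atic, an enzyme of purine synthesis, stood at 57.6, 41.3 and 56.7 RPKM in control libraries, against 50.7, 49.6 and 26.5 RPKM in knockout libraries. As in hmox1a, control 2 and knockout 3 were the low libraries, which follows from the choice of atic by likeness.

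**Figure D4:**
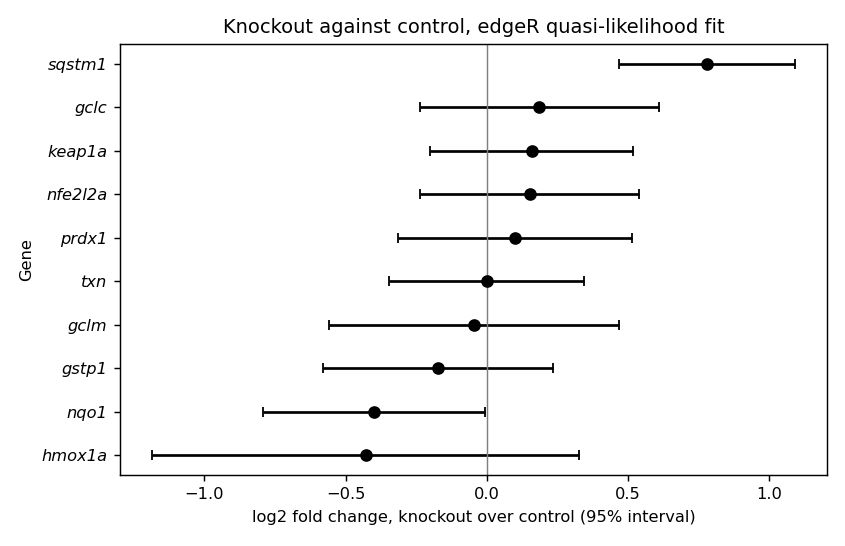
Log2 fold change of each member, knockout over control, with 95% intervals from the edgeR fit. The interval of sqstm1 runs from 0.47 to 1.09 and that of nqo1 ends just below 0, at -0.0068, while those of the other 8 members span 0.

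The wider pathway was read from 9 lists of 164 symbols, of which 145 were found and 142 genes were tested. None of the 142 was called by edgeR. At an unadjusted p under 0.05 there were 11 higher and 9 lower, 20 of 142, where 7.47% of all genes had such a p. DESeq2 called 3, of which txnipa and ggt1b were higher and gpx8 lower, against 1.14% of all genes. Without knockout 3 edgeR called 1, txnipa, against 0.985% of all genes. The median log2 fold change over the 142 was -0.0093, and 0.033 without knockout 3, where that of all genes was -0.018. No list was tested as a set.

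Of the 14 tested genes for glutathione synthesis and cycling, 11 had a log2 fold change above 0, with a list median of 0.45, against 49.5% and -0.0038 for all genes. In 8 of them all knockouts lay above all controls, in 0 below, against 6.3% and 9% of all genes. The list leaves out the members gclc and gclm, of the rate-limiting synthesis step. Their groups overlapped, at 1.14- and 0.970-fold. Among the 8 were slc7a11 and ggt1a, named for their low levels. Their means were 0.33 and 0.35 RPKM in controls, and 0.477 and 0.653 RPKM in knockouts. The gene slc3a2b, a heavy chain shared by amino acid exchangers that include the cystine importer, stood at 62.4, 54.3 and 72.5 RPKM in control libraries, against 92.7, 93.7 and 90.7 RPKM in knockout libraries. The knockouts were even and all above the controls (log2 fold change 0.59 ± 0.16, SE; edgeR adjusted p = 0.354). The gene chac1, whose product degrades glutathione and which responds to amino acid stress, stood at 124, 68.6 and 71.4 RPKM in control libraries, against 135, 136 and 156 RPKM in knockout libraries. Control 1 came close to the knockouts (edgeR adjusted p = 0.484). The gamma-glutamyltransferase gene ggt1b, which takes extracellular glutathione apart, was at 0.5 ± 0.156 RPKM in control libraries, against 1.66 ± 0.732 RPKM in knockout libraries (SD, n = 3 each; edgeR adjusted p = 0.225, 256 reads in all 6 libraries). Among slc3a2b, chac1 and ggt1b, the products of chac1 and ggt1b consume glutathione. Without knockout 3 the list median was 0.36, with 8 of 14 above the controls, against 13.6% of all genes.

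Among the 20 tested glutathione S-transferase genes 3 log2 fold changes were above 0 and 17 below, against 49.5% of all genes above 0, with a median of -0.28. All knockouts lay below all controls in 8 genes and above in 0, against 9% and 6.3% of all genes. The theta-class gene gstt1a stood at 46.4, 64.4 and 50.01 RPKM in control libraries, against 39.4, 38.6 and 31.3 RPKM in knockout libraries (log2 fold change -0.52 ± 0.17, SE; edgeR adjusted p = 0.504). Its relative gstt1b stood at 33.6, 38.9 and 22.2 RPKM in control libraries, against 21.5, 21.7 and 13.0 RPKM in knockout libraries, with control 3 just above knockout 2 (edgeR adjusted p = 0.557). The microsomal transferase gene mgst1.1 was at 9.29 ± 0.521 and 6.66 ± 0.303 RPKM (SD, n = 3 each; edgeR adjusted p = 0.615). Without knockout 3 the median was -0.27, with 2 of 20 log2 fold changes above 0 and 10 of 20 genes below the controls, against 19% of all genes. The 14 hepatocyte markers, of a cell type rich in such transferases, summed to 7068 to 8976 RPKM in the controls and to 7420, 7711 and 5604 RPKM in knockouts 1, 2 and 3, and 6 of the 14 had a higher mean in the knockouts. All 14 were detected and 13 were tested. All knockouts lay below all controls in 5 of the 13 and above in 2, against 9% and 6.3% of all genes. Their part in the transferase values was not tested. The median exonic length of the list was 1512 bases. Tested genes of 1426 to 2028 bases had a median log2 fold change of -0.010, and with each library's trend with length removed the list median was -0.21.

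**Figure D5:**
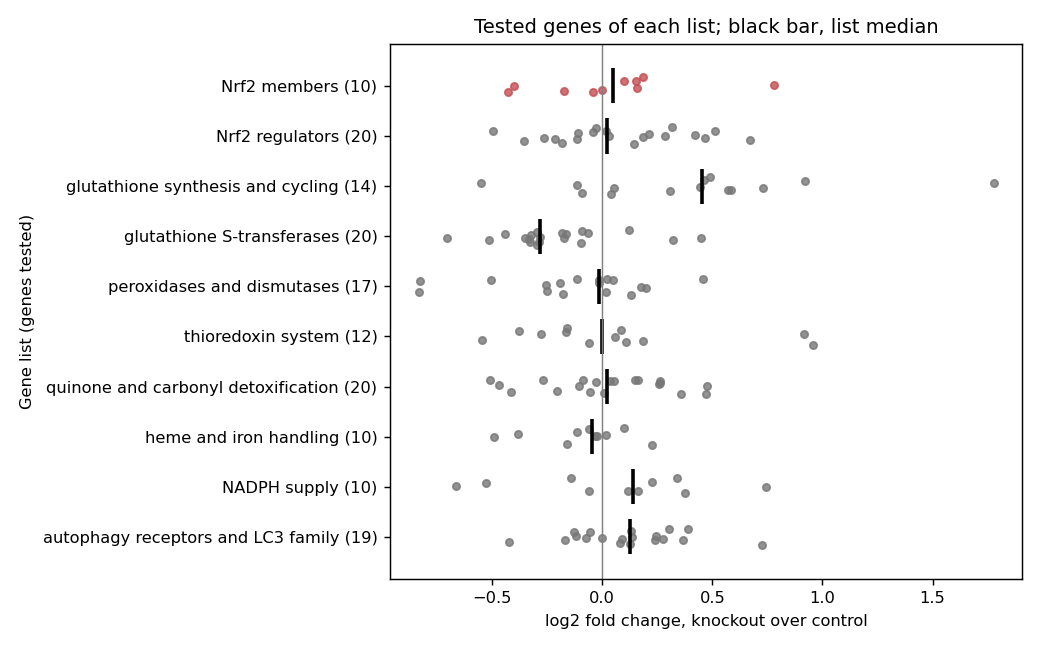
Log2 fold change (horizontal, knockout over control) of the 10 members (red) and of the tested genes of the 9 wider lists (grey). Black bars are list medians. No member, gclc and gclm included, is in a wider list. The glutathione synthesis and cycling genes have a median of 0.45 and the glutathione S-transferases one of -0.28, and the medians of the other lists lie between -0.046 and 0.14, the lower of which, for heme and iron genes, was 0.0049 without knockout 3.

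Peroxidase and dismutase genes had 7 of 17 log2 fold changes above 0, against 49.5% of all genes, and a median of -0.016. In 3 of them all knockouts lay below all controls and in 0 above, against 9% and 6.3% of all genes. Without knockout 3 the count above 0 was 7 and the median -0.064. The median exonic length of these genes was 1216 bases. Tested genes of 60 to 1425 bases had a median log2 fold change of -0.087. With each library's trend with length removed, 9 of the 17 were above 0, with a median of 0.0094. The endoplasmic reticulum peroxidase gene gpx8 stood at 11.8, 9.23 and 10.1 RPKM in control libraries, against 6.18, 6.14 and 4.75 RPKM in knockout libraries, with no overlap (log2 fold change -0.83 ± 0.20, SE; edgeR adjusted p = 0.256). The mitochondrial and peroxisomal peroxiredoxin gene prdx5 was at 149 ± 22.9 and 121 ± 1.88 RPKM (SD, n = 3 each; edgeR adjusted p = 0.756). The extracellular superoxide dismutase gene sod3b was at 1.49 ± 0.507 and 0.807 ± 0.166 RPKM (SD, n = 3 each; edgeR adjusted p = 0.681).

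In the thioredoxin system 6 of 12 log2 fold changes were above 0, with a median of -0.0024, against 49.5% of all genes above 0. Without knockout 3 there were 4 of 12, with a median of -0.029. In 2 of the 12 all knockouts lay above all controls and in 1 below, against 6.3% and 9% of all genes. Both genes for the thioredoxin-interacting protein, an inhibitor of thioredoxin that also restrains glucose uptake, had higher values in every knockout than in any control. The gene txnipa stood at 124, 105 and 112 RPKM in controls 1 to 3, against 239.9, 244 and 161 RPKM in knockouts 1 to 3. Knockout 3 lay between the controls and the other knockouts. The log2 fold change of txnipa was 0.96 ± 0.19 (SE; edgeR adjusted p = 0.160). The gene txnipb stood at 6.56, 4.04 and 4.54 RPKM in control libraries, against 7.85, 7.27 and 12.8 RPKM in knockout libraries (edgeR adjusted p = 0.425). In txnipb knockout 3 was the highest. The third gene named, txnl4a, is thioredoxin-like by fold and belongs to the spliceosome, at 40.3 ± 9.38 and 26.8 ± 6.71 RPKM (SD, n = 3 each; edgeR adjusted p = 0.643).

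Among the regulators, 11 of 20 log2 fold changes were above 0, against 49.5% of all genes, with a median of 0.023. All knockouts lay above all controls in 3 and below in 0, against 6.3% and 9% of all genes. Leaving out knockout 3 gave 13 of 20 and a median of 0.068. The gene maff, a small Maf partner of Nrf2, stood at 25.5, 22.5 and 25.0 RPKM in control libraries, against 33.0, 33.4 and 28.9 RPKM in knockout libraries (edgeR adjusted p = 0.532). The gene bach1b, of a repressor family that competes with Nrf2 for the same elements in mammals, stood at 6.02, 5.35 and 5.66 RPKM in control libraries, against 7.85, 8.48 and 7.35 RPKM in knockout libraries (edgeR adjusted p = 0.438). Both were without overlap. The small Maf gene mafk was at 4.33 to 4.49 RPKM in controls, at 7.73 and 8.27 RPKM in knockouts 1 and 2, and at 4.45 RPKM in knockout 3 (edgeR adjusted p = 0.621).

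In the NADPH supply list 6 of 10 log2 fold changes were above 0, against 49.5% of all genes, with a median of 0.14, which was 0.065 without knockout 3. Knockouts lay wholly above the controls in 2 of the 10 and wholly below in 2, against 6.3% and 9% of all genes. The NADPH-forming malic enzyme gene me1 stood at 3.08, 2.86 and 2.43 RPKM in control libraries, against 4.28, 4.54 and 4.84 RPKM in knockout libraries, without overlap (edgeR adjusted p = 0.332). The mitochondrial malic enzyme gene me2 was at 20.5 ± 0.857 and 25.3 ± 1.49 RPKM (SD, n = 3 each; edgeR adjusted p = 0.626). The 2 entries wholly below the controls were each named nadka, an NAD kinase gene. One of them was at 6.53 ± 0.477 and 4.003 ± 0.897 RPKM (SD, n = 3 each; edgeR adjusted p = 0.547). The other was at 8.4 ± 1.19 and 5.65 ± 1.60 RPKM (SD, n = 3 each, edgeR adjusted p = 0.750).

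Autophagy receptors and the LC3 family, the group to which sqstm1 belongs by function, had 12 of 19 log2 fold changes above 0, against 49.5% of all genes, and a median of 0.13. Leaving out knockout 3 gave 15 of 19 and a median of 0.072. With all 6 libraries, the knockouts lay above all controls in 1 of the 19 and below in 1, against 6.3% and 9% of all genes. The receptor gene tax1bp1b was at 34.4 ± 4.95 and 43.9 ± 6.83 RPKM (SD, n = 3 each; edgeR adjusted p = 0.690), and calcoco1a at 9.89 ± 0.558 and 12.4 ± 4.36 RPKM (SD, n = 3 each; edgeR adjusted p = 0.763). The gene becn1, for a subunit of the lipid kinase complex that starts autophagosomes, stood at 19.0, 19.7 and 16.1 RPKM in control libraries, against 14.0, 14.6 and 11.1 RPKM in knockout libraries, without overlap (edgeR adjusted p = 0.615). The LC3 gene map1lc3b, named after its values were seen, was at 71.8 to 102 RPKM in control libraries, against 68.0 to 104 RPKM in knockout libraries.

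Heme and iron genes had 3 of 10 log2 fold changes above 0, against 49.5% of all genes, and a median of -0.046. Only 10 of the 17 symbols on this list were found. Without knockout 3 the median turned to 0.0049, with 5 of 10 above 0. With all 6 libraries, the knockouts lay below all controls in 1 of the 10 and above in 0, against 9% and 6.3% of all genes. The transferrin receptor gene tfr1b, which brings iron into cells, stood at 18.7, 20.04 and 20.5 RPKM in control libraries, against 13.9, 14.5 and 12.6 RPKM in knockout libraries, without overlap (log2 fold change -0.49 ± 0.14, SE; edgeR adjusted p = 0.369). The biliverdin reductase gene blvrb, which acts after heme oxygenase, was at 17.9 to 20.7 RPKM in controls, at 18.1 and 17.0 RPKM in knockouts 1 and 2, and at 8.29 RPKM in knockout 3 (edgeR adjusted p = 0.790). The ferritin heavy chain gene fth1a was at 696 ± 81.6 and 626 ± 59.4 RPKM (SD, n = 3 each; edgeR adjusted p = 0.899). Quinone and carbonyl detoxification genes had 11 of 20 above 0, against 49.5% of all genes, and a median of 0.022. That median was 0.091, with 12 of 20 above 0, without knockout 3. With all 6 libraries, edgeR gave 0 of the 20 an unadjusted p under 0.05. Their knockouts lay below all controls in 2 of the 20 and above in 0, against 9% and 6.3% of all genes. The aldose reductase gene akr1b1 was at 44.2 ± 9.97 and 30.1 ± 8.73 RPKM, the transporter gene abcc2 at 4.40 ± 1.11 and 5.95 ± 1.63 RPKM, and the sulfotransferase gene sult1st1 at 32.0 ± 2.51 and 25.8 ± 3.26 RPKM (SD, n = 3 each; edgeR adjusted p = 0.709, 0.741 and 0.756).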

How the data were processed

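The authors deposited 1 table with read counts per Ensembl gene and library, and, per the file headers, RPKM values and exonic lengths. The counts are whole and not normalized, and the deposited RPKM values were recomputed from them within 0.005. Trimmomatic 0.30, HISAT2 2.0.1, HTSeq 0.6.1, DESeq and the build Zv9 are named in the submitters' processing notes, with no order or settings, and whether strand was used is not stated. Another 6 per-sample columns carry names that match none of the samples, and these stayed unused.

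Counts were filtered with filterByExpr, which left 20555 genes, scaled by TMM and compared with edgeR 4.0.16 under R 4.3.3, by its quasi-likelihood test with robust dispersion, with Benjamini-Hochberg adjustment over all genes tested. Standard errors and 95% intervals derive from its F statistic. Control-centred values are TMM-scaled log2 CPM (prior count 2) minus the control mean. The code was tested on simulated data. Alternatives included DESeq2 1.42.0, other filters, each library left out, knockouts 1 and 2 summed and, chosen after seeing the data, the trend with exonic length removed. The replicate numbers were also fitted as a block.

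The members and lists were chosen with earlier results of these data known. All members are named, and of each wider list the 3 genes with the smallest p at a mean of at least 1 RPKM in either group. Current gene names come from a name table, where 10 of 10 members matched.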

Additional observations from a re-analysis of the deposited data

How the results depend on the processing

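The direction and side of the threshold of the members' log2 fold changes were kept in 117 of 130 member-and-alternative combinations. The exceptions were sqstm1, which passed in 2, and sign changes of txn and gclm. The alternatives reuse the same 6 libraries, so the 130 are not separate checks. Apart from sqstm1, no member had an adjusted p below 0.403 in any of these fits. Over all genes, edgeR called 24, 53 without a filter on low counts, and DESeq2 called 234. With 1 library left out edgeR called 0 to 206, namely 206 without knockout 3, 8 without control 1 and 4 without control 3. It called 0 without control 2, and the unadjusted p was then under 0.05 for 956 genes. The 206 calls rest on the nearly alike knockouts 1 and 2 alone on the knockout side. Members called numbered 1 with DESeq2 and 0 to 1 with a library left out (1 without knockout 3). Wider pathway genes called numbered 3 with DESeq2 and 0 to 1 with a library left out. Members whose groups did not overlap numbered 2 to 4 with a library left out. There were 4 without knockout 3, where 13.6% of all genes lay above the controls and 19% below. For the other libraries left out, such shares over all genes were not computed. On TMM-scaled log2 CPM, chosen after seeing the data, sqstm1 and nqo1 again did not overlap, and 7.62% of all genes lay above and 7.44% below. The log2 fold change of txn, -0.00061, became 0.012 without a filter, 0.0062 at a mean of at least 2 RPKM, 0.011 with DESeq2 size factors, 0.011 with DESeq2, 0.0076 with the replicate block and 0.045 with the length trend removed, and ran from -0.079 to 0.12 with a library left out. That of gclm ran from -0.20 to 0.17. The cause of these changes was not tested. With the replicate number as a block edgeR called 18 genes and 0 members. Deviations of same-numbered libraries correlated at -0.00015, -0.059 and -0.035. With knockouts 1 and 2 nearly alike, these values cannot show whether same-numbered libraries were paired. With 219 to 8364 reads per member and library, the members' 95% intervals reach from 0.440- to 2.13-fold.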
